A study of Mus musculus with 32 samples.

Results

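Fmo1, Fmo2, Fmo4 and Fmo5 encode flavin-containing monooxygenases and were taken by name from the liver RNA-seq libraries, each as the sum of the estimated read counts over its annotated transcripts. They are 4 of 35523 genes with transcripts in the data, and all 4 were among the 13539 genes tested in the model of all 32 libraries. The enzymes sit in the membrane of the endoplasmic reticulum. They bind FAD, take electrons from NADPH, hold molecular oxygen on the reduced flavin as a peroxide, and pass 1 oxygen atom to a nitrogen or sulfur of a substrate. Drugs, dietary amines and sulfur compounds are typical substrates, so the family works beside the cytochromes P450 in hepatic drug metabolism. FMO1 also oxidizes hypotaurine to taurine, FMO2 is best known as a pulmonary form in many mammals, FMO5 carries out Baeyer-Villiger oxidation of ketones and has been linked to metabolic ageing in mice, and FMO4 is the least characterized of them.

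The libraries came from livers of Nudt7-/- (KO) and WT mice of both sexes, on a C57BL/6J background, after feeding with a Western diet (WD, with 0.2% cholesterol and 41% of its energy as fat) or a low-fat control diet (CD, free of cholesterol, with 10% of its energy as fat). There were 8 groups of 4 libraries: KO females, WT females, KO males and WT males on the WD, and the same on the CD. Diets began at 6 weeks of age and livers were taken at 17 to 20 weeks. The KO was a whole-body CRISPR/Cas9 deletion of exons 3 and 4 of Nudt7, a peroxisomal CoA diphosphohydrolase, and it descended from 1 mosaic founder made in FVB zygotes. WT mice were littermates. The study harvested mice fed or fasted, and the labels tie neither state to these livers. They also do not state that each library is a separate mouse, so the p-values measure the spread between libraries.

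Library totals were 10140048 to 15825078 estimated counts with a median of 13000302. Levels are given in CPM, the estimated counts scaled to a common library size. Within each sex and diet the KO libraries all had less Nudt7 than the WT libraries, at 21.1 to 63.5 CPM in KO females against 96.7 to 232 CPM in WT females, and at 41.0 to 249 CPM in KO males against 342 to 653 CPM in WT males. The 6 hepatocyte markers summed to 45407 CPM or more in every library. In 4 female libraries the 8 pancreatic acinar markers summed to 374 to 4847 CPM, against 104 CPM or less in the other 28: WT females on the CD replicates 2 and 4, KO females on the CD replicate 3, and WT females on the WD replicate 4. Each call on the 4 genes that changed without these 4 libraries is given with its value without them. Markers of organs known for high levels of particular family members were at or near 0. The 4 kidney markers summed to 0.105 CPM or less and the 3 lung markers to 0.601 CPM or less in all libraries. In bulk tissue, fewer cells of a type and less RNA per cell cannot be told apart.

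Fmo4, Fmo1 and Fmo2 lie side by side on the minus strand of chromosome 1 (GRCm38), at chr1:162793188-162813972, chr1:162829561-162866610 and chr1:162874317-162898726. Together they span 105.5 kb. Fmo5 lies on the plus strand of chromosome 3, at chr3:97628804-97655282. No other annotated gene overlapped any of the 4. The coding sequences each had 8 coding exons and shared 61.3 to 65.1% of aligned bases between any pair. The first 90 coding bases of the leading coding transcript of Fmo2, Fmo4 and Fmo5 are shown because they hold an FAD-binding site. Each lies within 1 exon, 5′ to 3′, and capitals mark the codons of the 3 glycines in the Gly-x-Gly-x-x-Gly motif. The motif starts at codon 9 in Fmo2 and Fmo4 and at codon 10 in Fmo5.
Fmo2-201, chr1:162898216-162898305, minus strand: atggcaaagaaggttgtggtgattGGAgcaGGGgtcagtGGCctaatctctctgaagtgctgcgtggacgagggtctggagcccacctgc
Fmo4-202, chr1:162809832-162809921, minus strand: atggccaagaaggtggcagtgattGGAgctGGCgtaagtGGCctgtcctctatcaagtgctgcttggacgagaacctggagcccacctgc
Fmo5-202, chr3:97629061-97629150, plus strand: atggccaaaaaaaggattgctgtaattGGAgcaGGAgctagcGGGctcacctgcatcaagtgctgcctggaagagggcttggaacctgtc
All 3 carried the motif. Of the 31-base words in the leading transcripts, none was found in another gene for Fmo1-201 and Fmo4-202, 2 of 4036 for Fmo2-201 and 44 of 2553 for Fmo5-202. The minor transcript Fmo1-202 shares 494 of its 1476 words with another gene and took 2.33% of the TPM of Fmo1.

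Sex was the factor by which all 4 genes differed. In the mean over both genotypes and diets, Fmo1, Fmo2 and Fmo4 were higher in females than in males by 1.68, 4.09 and 2.27 times, and Fmo5 was lower in females at 0.58 times its male level. The log2 differences (SE) were 0.74 (0.07) for Fmo1, 2.03 (0.14) for Fmo2, 1.18 (0.14) for Fmo4 and -0.79 (0.09) for Fmo5, with edgeR adjusted p of 2.56e-09, 2.79e-12, 2.8e-07 and 1.13e-07. All 4 passed an adjusted p of 0.05, where 31.6% of the 13539 genes tested did (15.9% higher and 15.6% lower in females). Without the 4 libraries with acinar RNA the differences were 0.76, 2.03, 1.25 and -0.73, and all 4 passed. Markers of liver cell types differed in the same contrast. Higher in females were 2 of 6 Kupffer cell and macrophage markers (Vsig4 at 0.53 and Clec4f at 0.36), 2 of 6 stellate cell and fibroblast markers (Des at 0.89 and Dcn at 0.35), 2 of 5 sinusoidal endothelial markers (Clec4g at 0.24 and Stab2 at 0.15), 1 of 5 cholangiocyte markers and 1 of 3 tested lymphocyte markers, and none of these was lower. Of the 6 hepatocyte markers 1 was higher and 2 were lower in females (Serpina1c at -0.82 and Apoa1 at -0.31). The summed levels overlapped, at 215 to 503 CPM in females and 181 to 350 CPM in males for Kupffer cells, 281 to 514 CPM in females and 285 to 519 CPM in males for stellate cells, and 217 to 328 CPM in females and 215 to 270 CPM in males for endothelial cells. Hepatocyte markers summed to 61293 to 97129 CPM in females and 45407 to 95561 CPM in males. Their part in the sex differences was not tested.

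**Figure D1:**
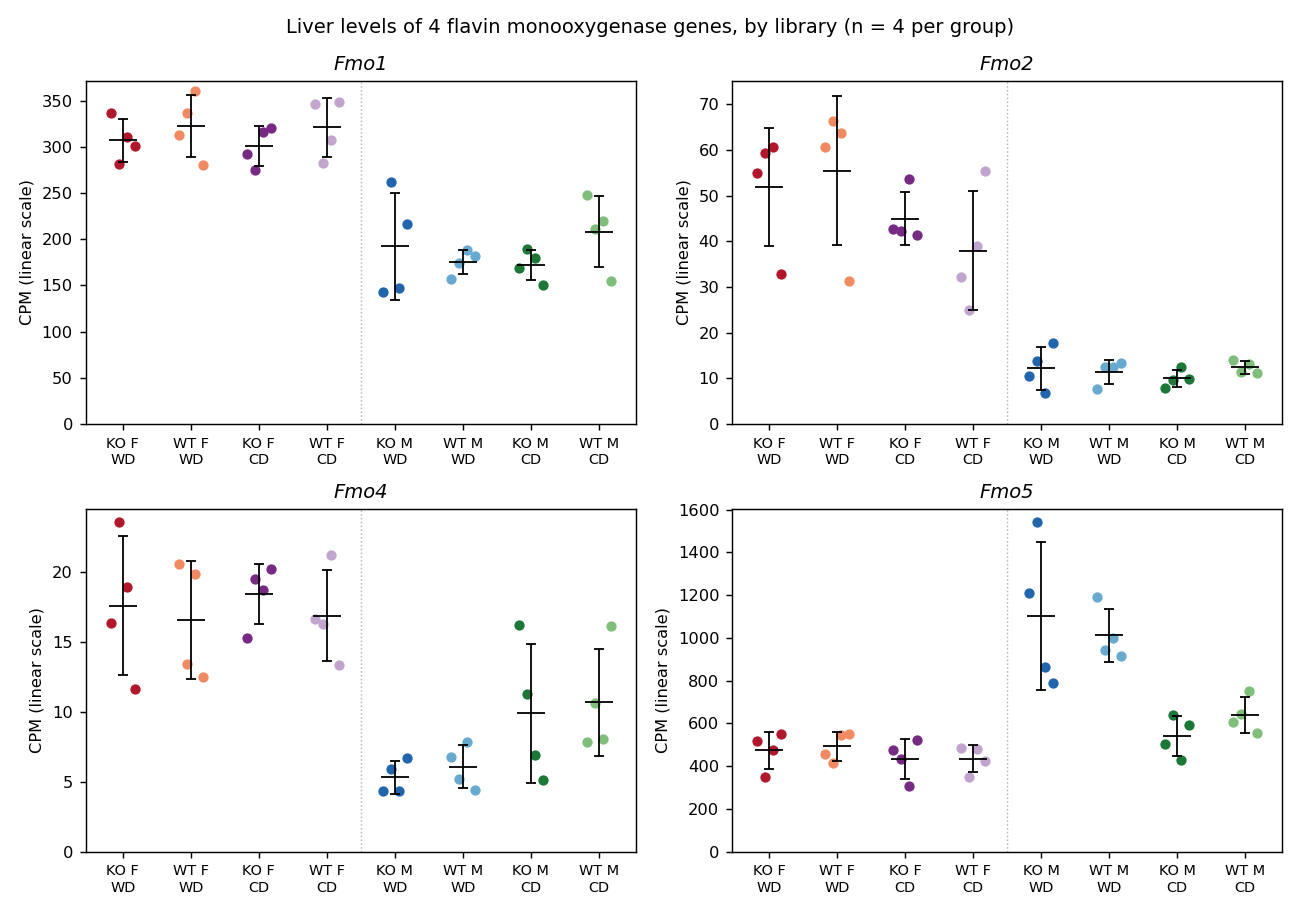
Level of Fmo1, Fmo2, Fmo4 and Fmo5 in every library, in CPM on linear axes from 0, by group (F, females; M, males; points are libraries, lines the mean and SD of 4). For Fmo1 and Fmo2 all 16 female libraries lie above all 16 male libraries, and for Fmo5 the 8 libraries of males on the WD lie above the 8 of males on the CD.

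Fmo1, the form that oxidizes hypotaurine, had 337, 281, 310.0 and 301 CPM in KO females on the WD, against 142, 262, 148 and 216 CPM in KO males on the WD. In WT mice on the WD it had 313, 337, 359.8 and 280.5 CPM in females, against 157, 174, 189 and 181 CPM in males. The ranges of the sexes did not meet in either genotype, with KO males replicate 2 closest to the females. On the CD, KO females had 292, 275, 316 and 321 CPM, against 169, 189.6, 179.5 and 150.5 CPM in KO males. WT females on the CD had 346, 282, 307 and 348 CPM, against 247, 211, 219 and 155 CPM in WT males. Over all strata the 16 female libraries ran between 275 and 360 CPM (mean 313 ± 26.9 SD) and the 16 male libraries between 142 and 262 CPM (187 ± 35.7), with no overlap. Of the 13539 genes tested, 171 (1.26%) had no overlap between the 16 female and 16 male libraries, 0.539% with females higher. Within strata the log2 difference was 0.66 in KO on the WD (adjusted p = 0.0438, edgeR), 0.89 in WT on the WD (0.000504), 0.81 in KO on the CD (0.00125) and 0.63 in WT on the CD (0.0581), so the last did not pass. The KO call on the WD was lost in 7 of the 8 fits that left out 1 library (all but the one without KO males replicate 2, adjusted p of the 7 up to 0.109), and with the replicate number as a block (0.71, 0.0681). In WT mice on the CD, Fmo1 passed at 0.69 (0.0315) without WT females replicate 2, the only 1 of 8 such fits to pass. By DESeq2 it passed at 0.63 (0.00223).

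Fmo2 had the widest ratio between the sexes. It had 54.8, 59.4, 60.6 and 32.9 CPM in KO females on the WD, against 10.5, 13.7, 6.76 and 17.8 CPM in KO males. In WT mice on the WD, females had 60.6, 66.4, 63.7 and 31.2 CPM, against 7.59, 12.4, 12.5 and 13.4 CPM in WT males. Replicate 4 of both female WD groups was the lowest of its group and still above the highest male. On the CD, KO females had 42.8, 42.1, 53.6 and 41.3 CPM, against 7.97, 9.61, 12.5 and 9.91 CPM in KO males. WT females on the CD had 32.2, 24.9, 39.0 and 55.4 CPM, against 14.0, 11.3, 13.0 and 11.2 CPM in WT males. The 16 female libraries ran between 24.9 and 66.4 CPM and the 16 male libraries between 6.76 and 17.8 CPM, again with no overlap. Fmo2 passed in each of the 4 strata, with log2 differences (edgeR adjusted p) of 2.08 (0.00742) in KO on the WD, 2.27 (0.00174) in WT on the WD, 2.18 (3.29e-06) in KO on the CD and 1.62 (0.00183) in WT on the CD. With the replicate number as a block, the difference in KO on the WD was 2.10 (0.0517) and did not pass. No consistent pairing of libraries by number was found.

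Fmo4 was the lowest of the 4 genes per length in most libraries. On the WD it had 16.3, 23.6, 18.9 and 11.6 CPM in KO females, against 4.33, 5.90, 4.35 and 6.74 CPM in KO males. In WT mice on the WD, females had 20.6, 13.4, 19.9 and 12.5 CPM, against 6.80, 5.18, 7.85 and 4.45 CPM in WT males. The sexes did not overlap on the WD, and the share of all genes with no overlap there was not counted. On the CD the sexes overlapped, with 15.3, 19.5, 18.7 and 20.2 CPM in KO females, against 16.2, 11.2, 6.92 and 5.16 CPM in KO males. WT females on the CD had 16.7, 16.3, 21.2 and 13.3 CPM, against 7.88, 10.6, 8.10 and 16.1 CPM in WT males. A single male library of each CD group, KO replicate 1 and WT replicate 4, reached the female range. The log2 differences were 1.71 (adjusted p = 0.00121, edgeR) in KO on the WD, 1.46 (0.00301) in WT on the WD, 0.89 (0.128) in KO on the CD and 0.67 (0.187) in WT on the CD. Leaving out that male library widens the difference by its choice. The CD differences then passed, at 1.24 (0.0143) without KO males replicate 1 and at 0.93 (0.0436) without WT males replicate 4. In each stratum this was the only fit to pass of the 8 that left out 1 library. The adjusted p ran up to 0.253 in KO and 0.455 in WT by edgeR. The difference in KO mice on the CD also passed by DESeq2 at 0.89 (0.0284).

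Fmo5, the Baeyer-Villiger form, ran the other way. On the WD it had 519, 352, 477 and 548 CPM in KO females, against 1211, 1542, 866 and 789 CPM in KO males. In WT mice on the WD, females had 456, 414, 547 and 553 CPM, against 1192, 943, 999 and 916 CPM in WT males. Every male library on the WD was above every female library, and the share of all genes with no overlap in this split was not counted. On the CD, KO females had 476, 434, 306 and 521 CPM, against 506, 640.5, 428 and 592 CPM in KO males. WT females on the CD had 484, 350.1, 479.7 and 424 CPM, against 607, 642, 750.5 and 555 CPM in WT males. The CD ranges overlapped in KO mice and did not in WT mice, again with no share of all genes counted. The log2 differences were -1.23 (adjusted p = 0.0064, edgeR) in KO on the WD, -1.03 (0.000922) in WT on the WD, -0.31 (0.33) in KO on the CD and -0.55 (0.0812) in WT on the CD. By DESeq2 the last passed (-0.55, 0.00539). Without the libraries with acinar RNA the difference in KO on the CD was -0.18 (0.582).

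By stratum, the number of the 4 genes that passed was 4 in KO on the WD (9.66% of all genes passed there), 4 in WT on the WD (9.64%), 2 in KO on the CD (6.66%) and 1 in WT on the CD (2.24%). Contrasts added after the values were seen took the mean over genotypes. On the WD the log2 differences between females and males were 0.77, 2.17, 1.58 and -1.14 for Fmo1, Fmo2, Fmo4 and Fmo5, and all 4 passed (21.4% of all genes). On the CD they were 0.72, 1.89, 0.78 and -0.44, and all 4 passed (16.1% of all genes), Fmo4 at an adjusted p of 0.00712 and Fmo5 at 0.0214 by edgeR. Without the 4 libraries with acinar RNA, Fmo5 on the CD was at -0.29 (adjusted p = 0.182) and no longer passed. It was also lost without single libraries, at adjusted p of 0.0543 without WT males on the CD replicate 3, 0.0515 without KO males on the CD replicate 2 and 0.0552 without KO females on the CD replicate 3.

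**Figure D2:**
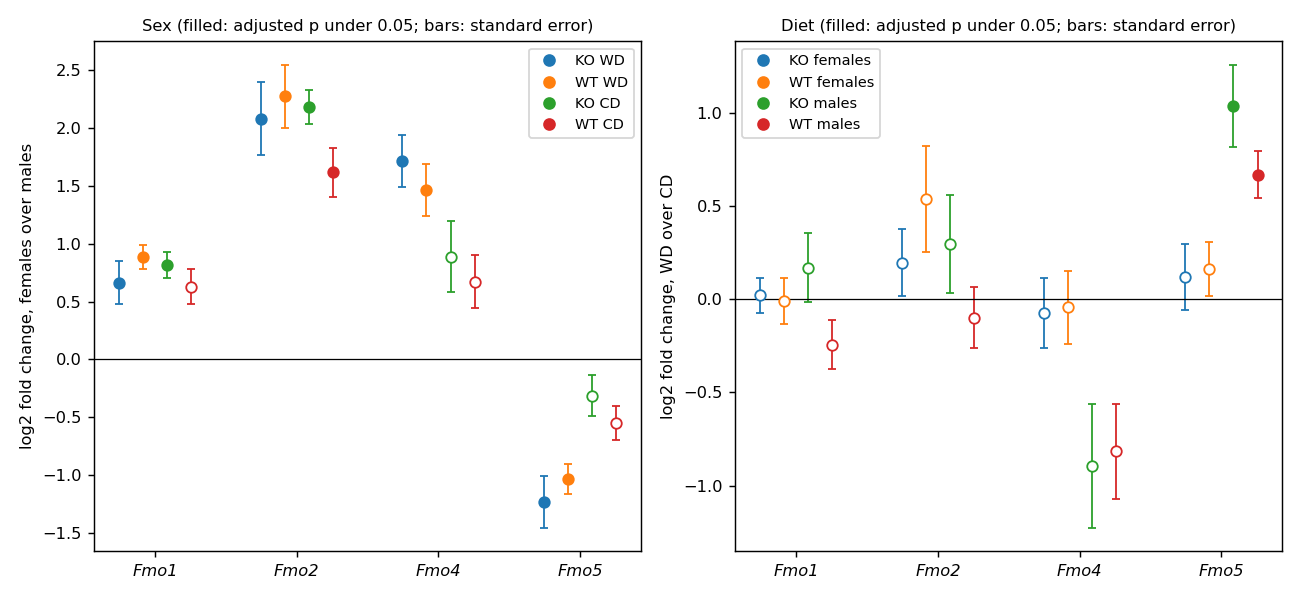
Log2 fold changes of the 4 genes by sex (left, females over males in 4 strata) and by diet (right, WD over CD in 4 strata), with the SE as bars and points filled where the adjusted p (edgeR) was under 0.05. Sex differences are positive for Fmo1, Fmo2 and Fmo4 and negative for Fmo5 in all 4 strata, and the filled diet points are those of Fmo5 in KO males (1.04) and WT males (0.67).

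Fmo5 and Fmo4 differed between the diets, in opposite directions, and both differences passed in males. In the mean over sexes and genotypes Fmo5 rose on the WD (log2 difference 0.49, SE 0.09, adjusted p = 0.000487, edgeR) and Fmo4 fell (-0.47, SE 0.14, 0.0214), which made 2 of 4 where 19.4% of all genes passed. The Fmo4 call was lost with length offsets in edgeR (-0.36, adjusted p = 0.0515) and with no filter on low counts (-0.45, 0.0509). In males alone, a contrast added after the values were seen, Fmo5 was 1.79 times as high on the WD (0.84, SE 0.13, adjusted p = 7.73e-05, edgeR) and Fmo4 was at 0.547 times its CD level (-0.87, SE 0.21, 0.00511), with 16.3% of all genes passing. In females the log2 differences were 0.14 for Fmo5 (95% interval -0.12 to 0.40, adjusted p = 0.658, edgeR) and -0.06 for Fmo4 (-0.44 to 0.31, 0.914), and none of the 4 passed, where 2.56% of all genes did. Without the libraries with acinar RNA, Fmo5 in females was at -0.03 (0.953).

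The 8 libraries of males on the WD ran between 789 and 1542 CPM of Fmo5 (mean 1057 ± 246 SD), against 428 to 751 CPM in the 8 of males on the CD (590 ± 97.0), with no overlap. Of all genes tested, 251 (1.85%) did not overlap between these 2 sets. Fmo5 rose in WT males on the WD by 0.67 on the log2 scale (SE 0.13, adjusted p = 0.00803, edgeR), the only one of the 4 to pass there, against 13.7% of all genes. It rose in KO males by 1.04 (SE 0.22, 0.0359), again 1 of the 4, against 2.6% of all genes. The KO call was near its threshold. Leaving out 1 of the 8 at a time gave log2 differences of 0.84 to 1.17 with adjusted p of 0.0348 to 0.0968, and 6 of the 8 fits no longer passed, those without any of the 4 CD libraries or without WD replicate 1 or 2.

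Fmo4 in males ran between 4.33 and 7.85 CPM on the WD, against 5.16 to 16.2 CPM on the CD. In WT males every WD library was below every CD library, a split that was not counted over all genes. The log2 difference of -0.82 did not pass (adjusted p = 0.0571, edgeR). It passed without WT males on the CD replicate 1, at -0.94 (0.046), the only 1 of 8 such fits to pass. By DESeq2 it passed at -0.82 (0.0165). In KO males the ranges overlapped and the difference was -0.89 (0.2). Neither Fmo1 nor Fmo2 passed by diet in males. The log2 difference of Fmo1 was 0.17 in KO males (95% interval -0.19 to 0.53) and -0.24 in WT males (-0.50 to 0.01), and that of Fmo2 was 0.30 in KO males (-0.22 to 0.81) and -0.10 in WT males (-0.42 to 0.22). In females Fmo2 averaged 51.9 ± 12.9 CPM in KO and 55.5 ± 16.4 CPM in WT on the WD, against 45.0 ± 5.77 CPM in KO and 37.9 ± 13.0 CPM in WT on the CD (SD, n = 4 each). Its log2 difference was 0.36 in the mean over genotypes (adjusted p = 0.313, edgeR; 0.56, 0.0843, without the libraries with acinar RNA) and 0.54 in WT females, and neither passed. None of the 4 passed between diets in KO females (0.125% of all genes) or in WT females (0.0785%). Without the libraries with acinar RNA, Fmo2 in WT females was at 0.82 (SE 0.11, adjusted p = 0.0208, edgeR) and passed. That fit set WD replicates 1, 2 and 3 against CD replicates 1 and 3 only. The libraries left out held the lowest WD value (31.2 CPM) and both the highest and the lowest CD value (55.4 and 24.9 CPM).

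Whether the diet differences were unlike in the sexes was tested as the difference of differences. It was -0.70 for Fmo5 (SE 0.19, females minus males, 95% interval -1.06 to -0.34) and 0.81 for Fmo4 (SE 0.28, 0.25 to 1.36), at adjusted p of 0.119 and 0.262 by edgeR. None of the 4 passed, where 0.244% of all genes did, and 1591 genes including Fmo4 and Fmo5 had an unadjusted p under 0.05. By DESeq2, Fmo5 passed at -0.70 (adjusted p = 0.0206). Without the 4 libraries with acinar RNA it passed by edgeR at -0.88 (0.0312), and without KO females on the CD replicate 3 alone at -0.77 (0.044). Of the 32 edgeR fits that left out 1 library, only the latter passed, with adjusted p of the rest up to 0.196.

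Other measures moved with diet in the same male libraries. The summed hepatocyte markers were 45407 to 69122 CPM in males on the WD, against 69969 to 95561 CPM in males on the CD. Of the 6 markers, 5 fell in the mean over all strata, where 19.4% of all genes passed. In males alone 3 of the 6 fell, where 16.3% of all genes passed. The 4 adipocyte markers summed to 7.46 to 96.4 CPM in males on the WD, against 0 to 3.02 CPM in males on the CD. Of the 3 adipocyte markers tested, Cfd, which encodes complement factor D, rose in males (6.65, adjusted p = 6.21e-05, edgeR), while Adipoq was at 2.13 (0.554) and Plin1 at 0.75 (0.782), and Lep was at 0 in KO males on the WD. Of the 6 Kupffer cell and macrophage markers, 3 rose in the mean over all strata (Cd5l at 0.71, Cd68 at 0.37 and Vsig4 at 0.28), and of these Cd5l passed in males (0.55, 0.0138). Their sum was 206 to 350 CPM in males on the WD, against 181 to 323 CPM in males on the CD. In females the hepatocyte sums were 61293 to 80917 CPM in KO and 64956 to 74577 CPM in WT on the WD, against 76076 to 97129 CPM in KO and 76977 to 94646 CPM in WT on the CD. The part of these shifts in the diet differences of Fmo5 and Fmo4 was not tested.

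None of the 4 genes passed between KO and WT mice. Over the 4 strata of sex and diet the log2 differences ran between -0.31 (Fmo2 in males on the CD) and 0.25 (Fmo2 in females on the CD), and none passed. Of all genes, 0.0156 and 0.0314% passed in females on the WD and the CD, and 0.0162 and 0.00814% in males on the WD and the CD. In the mean over strata the differences between KO and WT were -0.07 for Fmo1 (95% interval -0.22 to 0.07), -0.02 for Fmo2 (-0.28 to 0.24), -0.01 for Fmo4 (-0.29 to 0.27) and -0.04 for Fmo5 (-0.22 to 0.14), at adjusted p of 0.793 to 0.991 by edgeR. There 0.0886% of all genes passed. The genotype difference in females minus that in males, and the diet difference in KO minus that in WT, passed for no gene by edgeR (1501 and 1141 genes at an unadjusted p under 0.05) and for 48 and 3 genes by DESeq2, none of them a member.

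Ranked by mean CPM, the groups fell into the same sex blocks for the genes of chromosome 1. For Fmo1 the 4 female groups ranked first, from WT females on the WD at 323 CPM to KO females on the CD at 301 CPM, and the gap of 92.7 CPM to the next group, WT males on the CD at 208 CPM, was over the larger SD of the neighbours. No other neighbours in that order differed beyond their SD. For Fmo2 the same held, with a gap of 25.5 CPM between WT females on the CD and WT males on the CD. For Fmo4 the gap between WT females on the WD and WT males on the CD was 5.90 CPM, above the larger SD of 4.21 CPM, although libraries overlapped. For Fmo5 KO males on the WD at 1102 CPM and WT males on the WD at 1012 CPM ranked first and did not differ beyond their SD. A gap of 374 CPM followed, and then came WT males on the CD at 639 CPM, KO males on the CD at 542 CPM, a gap of 97.3 CPM that was over the larger SD of 93.8 CPM although libraries overlapped, and the 4 female groups between 493 and 434 CPM.

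Levels of different genes were compared per length, as TPM (the deposited abundance per effective length, scaled to a common total) summed over the transcripts of a gene. In 14 libraries the order was Fmo5, Fmo1, Fmo2, Fmo4, in 11 it was Fmo1, Fmo5, Fmo2, Fmo4, and in 7 it was Fmo5, Fmo1, Fmo4, Fmo2. Fmo5 was above Fmo1 in 5 of 16 female libraries and in 16 of 16 male libraries. The TPM ratio of Fmo5 to Fmo1 was 0.922 ± 0.193 in females (0.601 to 1.31), against 3.90 ± 1.01 in males on the WD (2.34 to 5.32) and 2.05 ± 0.359 in males on the CD (1.43 to 2.52). No female library reached the lowest male, a split that was not counted for ratios of other genes.

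The summed TPM of the 4 genes was 474 ± 40.3 in females and 460 ± 133 in males (SD, n = 16 each). In males it was 556 ± 120 on the WD (462 to 773) and 365 ± 49.6 on the CD (306 to 417), with no overlap. Such a split was not counted for sums of other genes. Fmo5, the largest part of the sum in males, itself did not overlap between these sets, and neither did 1.85% of all genes. Of that sum, Fmo1 took 48.5% in females and 26.6% in males, Fmo5 took 43.9% in females and 71.2% in males, Fmo2 took 5.09% in females and 1.06% in males, and Fmo4 took 2.51% in females and 1.19% in males. In males Fmo5 took 77.5% on the WD and 64.9% on the CD.

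**Figure D3:**
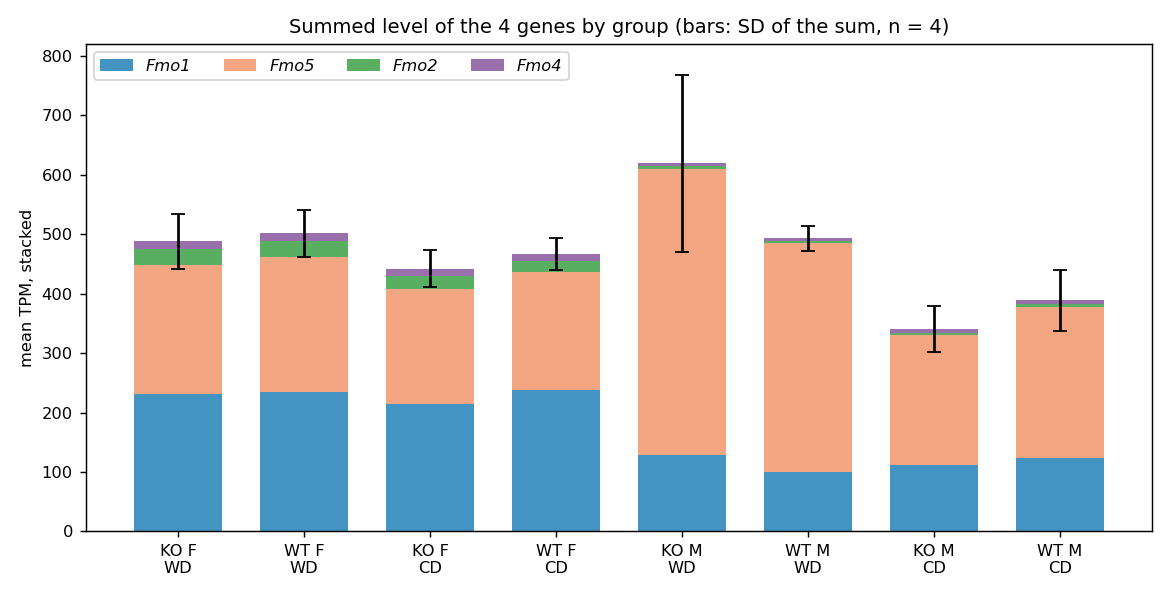
Mean TPM of the 4 genes stacked by group, with the SD of their sum over 4 libraries as bars. In the female groups Fmo1 and Fmo5 take similar parts of a sum of about equal height, and in males on the WD the Fmo5 part makes the sum higher than in males on the CD.

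Each gene had several annotated transcripts, and the leading one differed in how clearly it could be told from the others. For Fmo1, coding transcript Fmo1-201 held 70.7 ± 6.20% of the gene's TPM over the 32 libraries (51.2 to 81.4%). For Fmo4, Fmo4-202 held 63.5 ± 8.36% and Fmo4-201 was listed at 0 in all 32 libraries. Fmo4-201 has no 31-base word of its own, so this 0 also rests on the estimate. Fmo5 was spread over Fmo5-201, Fmo5-202 and Fmo5-203 at 32.3, 37.3 and 26.9%. Fmo5-201 has no 31-base word of its own, so its split from the other 2 rests on the estimate.

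For Fmo2 the estimate put about the same TPM on the coding transcript Fmo2-201 and on Fmo2-206, annotated as a retained intron, in females. Fmo2-201 had 8.04 ± 3.02 TPM in females and 2.62 ± 1.28 TPM in males, and Fmo2-206 had 8.12 ± 3.28 TPM in females and 0.817 ± 0.964 TPM in males (SD, n = 16 each). As a share of the gene's TPM, Fmo2-206 took 33.9 ± 7.77% in females (17.2 to 52.4%), and in males 18.2 ± 23.1% (0 to 70.8%). It was above 0 in 16 of 16 female and 8 of 16 male libraries. The gene had at most 211 estimated counts in a male library, and the transcripts share 3502 31-base words, with 534 found only in Fmo2-201 of the pair and 62 only in Fmo2-206. Male shares rest on these few counts, and no test was made on them. Only 5 of the 4036 words of Fmo2-201 were found in no other transcript, so its level in females also rests on the estimate.

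**Figure D4:**
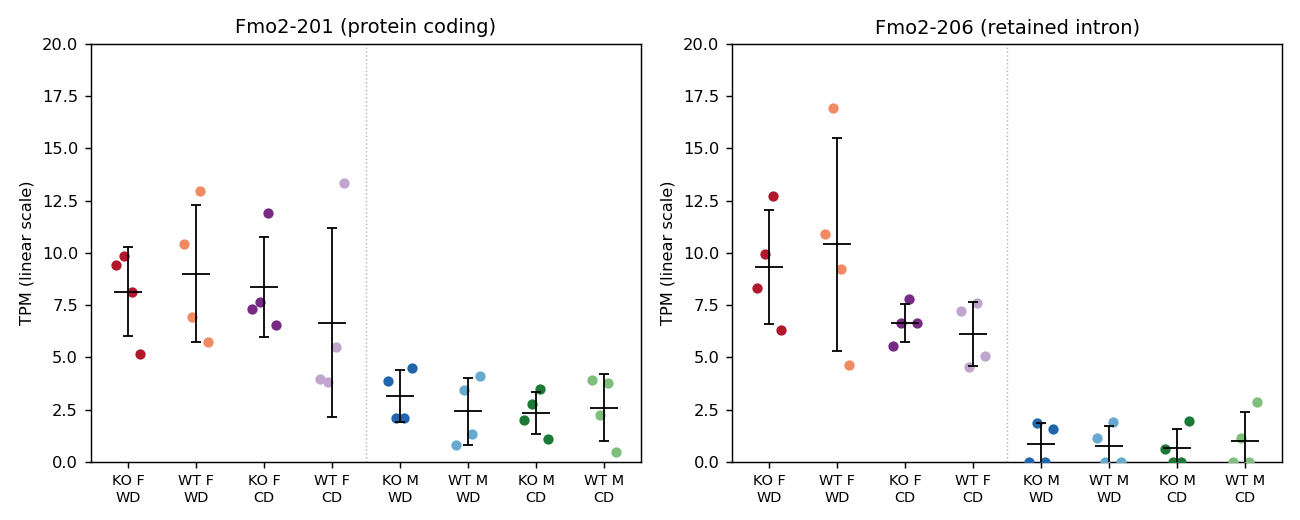
TPM of the coding transcript Fmo2-201 and of the retained-intron transcript Fmo2-206 in each library by group (F, females; M, males; lines are the mean and SD of 4). Fmo2-206 is above 0 in all 16 female libraries and in 8 of 16 male libraries.

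The promoter table of RefSeq (GRCm38.p6) held windows of 250 bases before to 50 after the start for Fmo2, Fmo4 and Fmo5. They were searched on both strands for letters bound by liver factors: TTCNNNGAA for STAT5, which carries growth hormone signals, TGTTTAC for FOXA, and the palindromic HNF1 motif. A window of Fmo2 held the STAT5 letters 13 bases after its start and the FOXA letters 28 bases before it. That window, chr1:162898444-162898743, lies mostly inside the annotated gene, which starts at chr1:162898726 on the minus strand. The 30 bases around each match are shown 5′ to 3′ on the gene's strand, with the match in capitals (FOXA as its reverse complement).
Fmo2, STAT5 letters, chr1:162898462-162898491, minus strand: ccagacaagtTTCTCTGAAggggaggaagg
Fmo2, FOXA letters, chr1:162898503-162898532, minus strand: gccaggactttGTAAACAcgtttacaatga
A second window of Fmo2 and the windows of Fmo4 and Fmo5 held none of the 3. Of 32851 promoter windows, 8.3% held the STAT5 letters, 3.65% the FOXA letters and 0.00913% the HNF1 letters. Binding at these letters, and any part in the sex difference of Fmo2, was not tested.

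The genes whose pattern was most like that of each member were those with the highest Pearson r of log2(CPM + 0.5) over the 32 libraries, among 12238 genes with a mean of 1 CPM or more. The libraries share the 8 groups, so such r mostly follow the group means. For Fmo2 they were Trim24, a transcriptional co-regulator (r = 0.97, Spearman rho = 0.92), Cux2, a repressor expressed in female mouse liver (0.97 and 0.91), and Nt5e, the ecto-nucleotidase CD73 (0.96 and 0.91). For deviations from the group means, r with Fmo2 was 0.82 for Trim24, 0.75 for Cux2 and 0.61 for Nt5e. Trim24 averaged 60.2 CPM in females and 15.6 CPM in males, and Cux2 averaged 40.2 CPM in females and 0.631 CPM in males. For Fmo1 the closest were Vnn3, of the vanin family, the P450 gene Cyp2c39 and Nt5e, with r of 0.93, 0.92 and 0.92, and with r of deviations of 0.73, 0.72 and 0.51. For Fmo4 they were the semaphorin gene Sema4a, Nipal1 and the hepcidin gene Hamp2 (0.91, 0.90 and 0.88, deviations 0.68, 0.59 and 0.36). For Fmo5 they were Chpt1, a cholinephosphotransferase, Acox2, a peroxisomal oxidase of bile acid intermediates, and Stradb (0.89, 0.87 and 0.87, deviations 0.51, 0.56 and 0.59). Chpt1 averaged 134 CPM in females and 249 CPM in males.

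Among the members themselves, Fmo1 and Fmo2 went together both over all 32 libraries (r = 0.92, rho = 0.90) and in their deviations from the group means (r = 0.58). Fmo4 had r of 0.73 with Fmo1 and 0.76 with Fmo2, and its deviations had r of 0.04 and 0.10. Fmo5 had r of -0.59 with Fmo1, -0.67 with Fmo2 and -0.78 with Fmo4, and r of deviations of 0.23, -0.23 and -0.12. The values are descriptions over libraries that share groups and depth.

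**Figure D5:**
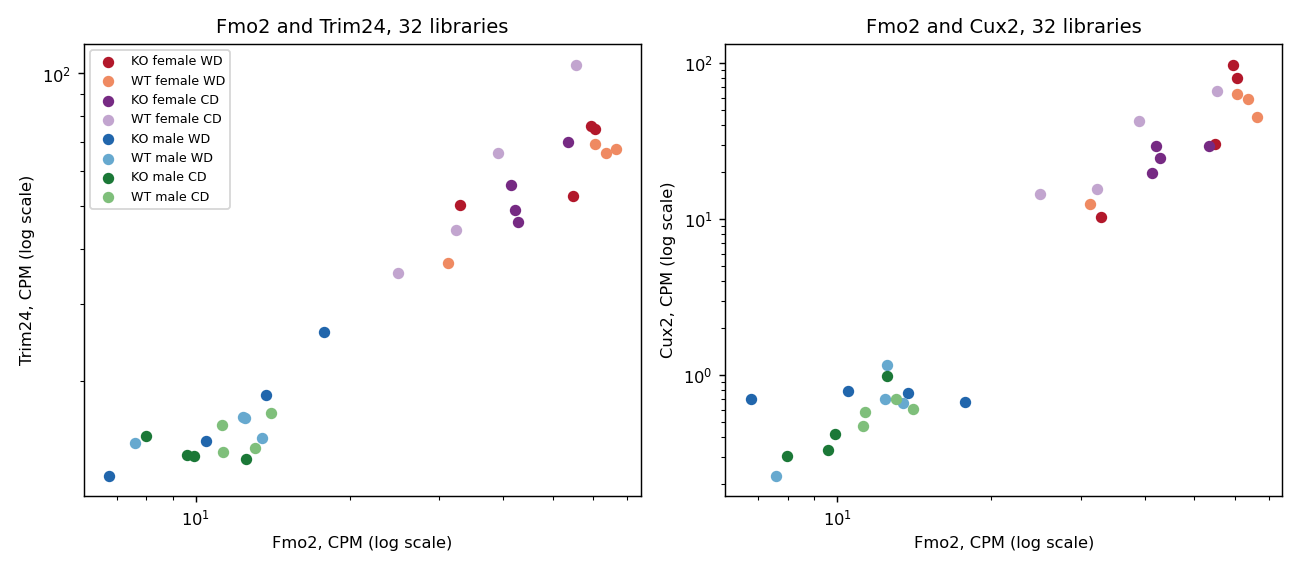
Level of Trim24 (left) and Cux2 (right) against that of Fmo2 in the 32 libraries, in CPM on log axes, coloured by group. Female and male libraries form separate clouds in both panels, and r within a sex is 0.80 in females and 0.70 in males for Trim24, and 0.85 in females and 0.54 in males for Cux2.

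Genes next to the members were read against the 31.6% of all genes that passed between the sexes. Of 8 other protein-coding genes within 500 kb of the starts of the chromosome 1 members, 5 were tested, 1 was higher in females and none was lower, with a median of 0.02. The higher one was Dnm3, a dynamin (0.90 on the log2 scale, SE 0.17, adjusted p = 0.000112, edgeR). It had a low mean of 0.877 CPM and lay 336 kb from the nearest start. Prrc2c, 73.4 kb from the nearest start, was at -0.08 (0.339). Of 9 around Fmo5, 7 were tested, 1 was higher and 2 were lower in females, with a median of -0.02. Sec22b, a vesicle transport protein 272 kb away, was at -0.54 (SE 0.05, 1.02e-09).

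Genes that supply the cofactors or share the substrates of the enzymes were read as lists. Over all genes the median log2 difference was 0.02 for sex and -0.01 for diet, and 31.6% of all genes passed for sex and 19.4% for diet. Of 7 genes of NADPH supply, 3 were higher and none lower in females (median 0.235), namely Nadk, the NAD kinase (0.23, adjusted p = 0.000461, edgeR), G6pdx, which opens the pentose phosphate pathway (1.05, 0.018), and Mthfd1 (0.16, 0.0264). On the WD, none rose and 6 of 7 fell (median -0.56), among them Aldh1l1 (-0.56, 0.00133), the malic enzyme gene Me1 (-1.04, 0.00685) and Pgd (-0.79, 0.0108). Of 3 tested genes of FAD supply, Rfk, the riboflavin kinase, was higher in females (0.46, 1.96e-06) and Flad1, the FAD synthase, was lower (-0.14, 0.0269). On the WD Flad1 fell (-0.15, 0.0228).

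Of 5 tested genes of taurine synthesis and use, 2 were higher and 1 was lower in females, where 31.6% of all genes passed. Cdo1, which makes the precursor of hypotaurine from cysteine, was at 0.21 (adjusted p = 0.026, edgeR), the taurine transporter Slc6a6 at 0.17 (0.0294) and Baat, which conjugates bile acids to taurine, at -0.33 (0.000173). None changed by diet. Of 13 genes of choline and methionine metabolism, 2 were higher and 3 lower in females, a share near that of all genes, and on the WD 1 rose and 5 fell, against 19.4% of all genes, including Pemt (-0.46, 0.000169) and Gnmt (-0.67, 0.000293), with Chdh at 0.21 (0.00416).

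Of 15 genes for other oxidation of xenobiotics outside the P450 family, 6 were higher and 5 lower in females, where 31.6% of all genes passed. The aldehyde oxidase gene Aox3 was at -1.54 (adjusted p = 1.05e-10, edgeR), Adh4 at -1.29 (3.53e-08) and the quinone reductase gene Nqo1 at 1.01 (4.13e-09). On the WD 6 rose and 4 fell, where 19.4% of all genes passed. Por, the reductase that feeds electrons to the P450s, rose by 0.95 (6.95e-06), the microsomal epoxide hydrolase gene Ephx1 by 0.91 (2.69e-06), and Adh1 was at -0.38 (0.000266). Of 3 tested AHR targets, Tiparp was higher (0.29, 0.0212) and Cyp1a2 lower (-0.39, 0.00697) in females, and none changed by diet.

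Genes known to be male- or female-predominant in mouse liver set the scale of the sex differences. For sex 31.6% of all genes passed, and for diet 19.4%. Of 9 male-predominant genes none was higher and 8 were lower in females (median -5.58), and all 8 female-predominant genes were higher (median 8.67), against 2.03 for Fmo2. Of 9 genes of growth hormone signaling 2 were higher (Stat5a at 0.35 and Socs2 at 1.15) and 2 lower in females (Ghr at -0.32 and Bcl6 at -1.18), and none changed by diet. Of 8 pericentral hepatocyte genes, 2 were higher and 1 lower in females and 2 rose on the WD, with Cyp2e1 at 0.64 (adjusted p = 0.00149, edgeR), shares near those of all genes. Of 8 periportal genes, 1 was higher and 2 lower in females, with Cyp2f2 at -0.95 (4.16e-09), and 7 fell on the WD (median -0.38). None of the lists held a gene that differed between KO and WT in the mean over strata.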

How the data were processed

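Liver mRNA was sequenced in 8 groups of 4 libraries. The authors ran Salmon 1.3.0 against mouse transcripts (builds GRCm38 and mm10 per the labels) and deposited estimated counts and TPM per transcript. TPM uses the effective length and the sum of each library. Estimated counts were summed per gene by transcript identifier with the GENCODE annotation of GRCm38, which left 0.315 to 0.424% of counts outside, and rounded. CPM used TMM factors over all 32 libraries. Tests were edgeR 4.0.16 quasi-likelihood F tests (R 4.3.3) with Benjamini-Hochberg adjustment over the genes that reached 10 counts in 4 or more libraries, for 12 pairs of groups and for contrasts of a model with all 32 libraries. DESeq2 1.42.0, other size factors, filters, length corrections, a replicate block and leaving out libraries were the alternatives. Tests were two-sided, and a gene passed at an adjusted p under 0.05. Intervals are 95%. The tests were checked on simulated data. The genes named were the 4 members, the 3 most similar genes of each, genes within 500 kb (up to 3 named) and up to 4 genes of each list with the smallest p. The members and the lists were chosen with earlier results of these data known. No consistent pairing of libraries by replicate number was found, and no library was a copy of another (Spearman rho within groups 0.960 to 0.992). In each file all columns of values were assigned to its own sample. The coding sequence of Fmo1 is not reported here.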

Additional observations from a re-analysis of the deposited data

Results flagged for a closer look

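In 2 of the 32 sets of 4 libraries (4 genes in 8 groups) a library stood apart from the other 3 by Dixon's test at the 95% level, which chance does in about 1 of 20 sets. Fmo2 in KO females on the CD was 53.6 CPM in replicate 3, against 41.3 to 42.8 CPM in the other 3. Fmo2 in WT females on the WD was 31.2 CPM in replicate 4, against 60.6 to 66.4 CPM in the other 3. Both libraries are among the 4 with acinar RNA, at 2288 and 374 CPM of the acinar markers. The first was the highest and the second the lowest of its group, and both were above every male library. The part of acinar RNA in these values was not tested.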

How the results depend on the processing

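The 4 calls in the mean sex difference, the 4 in WT mice on the WD and the absence of calls by genotype held under each alternative run, and no called value changed sign in 2484 refits of single genes (22 lost and 22 gained the call, and 122 changed sign while called in neither fit). Between the sexes in WT mice on the CD, 1 gene passed, against 2 in the model of all 32 libraries, with length offsets in edgeR, with no filter and with the length trend removed, 3 by DESeq2 with or without length offsets, and 1 to 2 when 1 library was left out. In KO mice on the WD 4 passed, against 2 with the replicate block (Fmo1 0.71, adjusted p = 0.0681; Fmo2 2.10, 0.0517), 3 with the length trend removed, and 3 to 4 when 1 library was left out, with Fmo1 lost in 7 of 8 edgeR fits. No consistent pairing by number was found. Deviations had a mean r of 0.00936 between libraries of one number and -0.00263 between others. In 0 of 12 comparisons was every pair over 0.1. Single pairs ran from -0.466 to 0.361, and partial pairing was not tested. The block changed no other call of the members. In KO mice on the CD 2 passed, against 3 in the model of all 32 libraries and by DESeq2 and 2 to 3 when 1 library was left out, and on the CD over both genotypes 4, against 3 to 4 when 1 library was left out. For diet, WT males had 1 call, against 2 by DESeq2 with or without length offsets, and 1 to 2 when 1 library was left out, KO males 0 to 1 when 1 library was left out, and WT females 0 against 1 without the libraries with acinar RNA. The mean diet difference had 2 calls, against 1 with edgeR length offsets and 1 with no filter (Fmo4 -0.36, adjusted p = 0.0515, and -0.45, 0.0509). The diet difference in females minus that in males had 0 calls, against 1 by DESeq2 with or without length offsets, 1 without the libraries with acinar RNA, and 0 to 1 when 1 library was left out. The causes were not tested.

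The number of all genes called moved more than 1.5 times in these comparisons, by edgeR against its lowest and highest over 9 alternatives: sex in KO on the WD 1228 (801 to 1676), KO on the CD 837 (701 to 1627), WT on the WD 1207 (803 to 1658) and WT on the CD 280 (227 to 615), and diet in KO females 16 (14 to 233), WT females 10 (2 to 99), KO males 323 (269 to 808) and WT males 1678 (481 to 1990). By genotype it was 2 (0 to 62) and 4 (3 to 26) in females on the WD and the CD, and 2 (0 to 54) and 1 (0 to 32) in males on the WD and the CD. Over 8 alternatives the mean genotype difference had 12 (9 to 57), the diet difference in females minus males 33 (25 to 204), the genotype difference in females minus males 0 (0 to 48) and the diet difference in KO minus WT 0 (0 to 3). Leaving out the libraries with acinar RNA, and the contrasts of sex within a diet and of diet within a sex, were chosen after the values were seen. Depth limits Fmo2 and Fmo4 in males, at 211 and 214 estimated counts or fewer per library, and any split of Fmo2 between its transcripts.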
